A study of Mus musculus with 13 samples.

Results

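The ATP-binding cassette (ABC) family was followed in 4T1 mouse mammary tumors through a course of metronomic cyclophosphamide (CPA) and after it was stopped. Its members were taken by name, as every gene whose symbol consists of ABC, a subfamily letter from A to G and a number, with a final letter where there are copies. This rule found 50 of the 24170 genes in the table and used no expression value. The tumors grew in the mammary fat pads of female BALB/c mice, the strain from which the 4T1 carcinoma line was derived. CPA, a prodrug that liver enzymes turn into a DNA alkylating agent, was injected at 130 mg/kg once every 6 days, and controls received PBS as vehicle. The 5 groups were vehicle (3 libraries, mice of 10 to 11 weeks), 2 CPA cycles (3 libraries, 10 to 11 weeks), 4 cycles (3 libraries, 12 to 13 weeks), 7 cycles (2 libraries, 14 to 15 weeks), and regrowth, taken 18 days after CPA was halted at 4 cycles (2 libraries, 14 to 15 weeks). The 13 libraries were strand-specific and polyadenylated, and 2 to 3 tumors were combined in each, so that no library stands for a single mouse. After 4 cycles and later, treatment and age cannot be told apart in a comparison with vehicle.

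ABC proteins bind and split ATP through a shared cassette, and most of them use that energy to move a substrate across a membrane. Some carry a pair of membrane domains and a pair of cassettes in 1 chain, while others carry 1 of each and work as dimers. ABCA and many ABCG members move sterols and phospholipids, ABCB and ABCC members include the pumps known for drug resistance in tumors, and ABCD members import fatty acids into peroxisomes or carry cobalamin out of lysosomes. The ABCE and ABCF members lack membrane domains and act on ribosomes instead. CPA itself is not a classical substrate of P-glycoprotein, the pump best known for resistance to natural product drugs.

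All levels given are the authors' group values in FPKM (fragment counts scaled to gene length and library size), 1 per gene and group. Values of the single libraries were not used and the authors' own test columns were left aside, so no spread or p-value is given, and whether a difference exceeds the spread between pools was not tested. Differences are given as log2((FPKM + 0.1)/(FPKM + 0.1)), on which the changes of weakly expressed genes come out too small. A gene is called past the fold when it differed at least 2-fold either way on this scale with at least 1 FPKM in the higher group. The share of all genes past the fold in the same direction is given as the background. The 4 comparisons with vehicle share the vehicle value and are not independent of each other. The sum of FPKM over all genes was 214214 in vehicle, 226420 after 2 cycles, 238549 after 4 cycles, 258724 after 7 cycles and 251042 in regrowth. Scaling the groups to the same sum would shift each difference from vehicle by -0.08, -0.16, -0.27 and -0.23 on the log2 scale, for ABC genes and all others alike.

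Marker genes of other cell types moved between the groups, and fewer cells of a type and less RNA per cell cannot be told apart in bulk tumor RNA. Epithelial keratins, which mark the carcinoma cells, were abundant throughout, with Krt8 at 262 FPKM or more and Krt18 at 270 FPKM or more in every group. The summed FPKM of 8 neutrophil markers was 53.0 in vehicle, 287 after 2 cycles, 305 after 4 cycles, 472 after 7 cycles and 54.7 in regrowth. For 10 adipocyte markers it was 46.3, 150, 120, 128 and 68.5, and for 10 skeletal muscle markers 113, 45.4, 19.01, 539 and 52.2, in the same order. For 8 erythroid markers it was 47.1, 127, 151, 194 and 42.0, and for 10 fibroblast markers 1082, 680, 492, 325 and 450. Within the fibroblast list Dpt and Pi16 went against this sum, past the fold above vehicle after 2, 4 and 7 cycles. The background there was 3.23%, 3.65% and 4.77% of genes higher. Above vehicle by any amount were 4 of the 10 after 2 cycles, 4 after 4 cycles, 3 after 7 cycles and 3 in regrowth. For 8 liver markers the sum was highest after 4 cycles, at 120 against 70.2 in vehicle. For 10 markers of cornified epithelium (Krt1, Krt10 and Lor among them) the sum was 28.7 in vehicle, 93.0 after 2 cycles, 52.4 after 4 cycles, 115 after 7 cycles and 37.4 in regrowth. Of these lists, the erythroid and cornified ones alone held markers listed at 0 in a group. These were Slc4a1 and Epb4.2 in the erythroid list and Calm4 in the cornified one. The markers of macrophages, pericytes, endothelium and epithelium are given beside the ABC genes they moved with.

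The promoters of 2 members are shown because these genes stand for the 2 main patterns described here, a lipid exporter that was higher early in treatment and a drug pump that was lower late in treatment. The sequences are RefSeq promoters of 300 bases, from 250 bases before to 50 after the start of the gene, on build GRCm38.p6. Abca1 lies on the minus strand at chr4:53159846-53160145. Its capitals mark a direct repeat of the kind bound by liver X receptors (LXR), the sterol-sensing nuclear receptors, found on the opposite strand with its first base 67 bases upstream of the start. Abcb1b lies on the plus strand at chr5:8797897-8798196. Its capitals mark 2 CCAAT boxes, 1 on each strand, a sequence bound by the general promoter factor NF-Y.
Abca1: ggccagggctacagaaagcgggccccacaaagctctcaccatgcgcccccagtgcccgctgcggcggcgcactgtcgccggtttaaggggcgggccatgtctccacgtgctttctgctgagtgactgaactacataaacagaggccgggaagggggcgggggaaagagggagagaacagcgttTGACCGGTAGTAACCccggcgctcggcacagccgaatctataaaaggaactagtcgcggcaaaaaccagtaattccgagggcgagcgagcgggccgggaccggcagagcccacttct
Abcb1b: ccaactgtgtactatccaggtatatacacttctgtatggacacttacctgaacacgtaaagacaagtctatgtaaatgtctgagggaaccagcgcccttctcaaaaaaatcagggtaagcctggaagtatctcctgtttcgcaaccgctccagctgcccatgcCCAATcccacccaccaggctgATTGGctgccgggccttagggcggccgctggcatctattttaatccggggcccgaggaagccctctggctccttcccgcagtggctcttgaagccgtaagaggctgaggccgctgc

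The repeat was searched on both strands as GGTNA, 5 bases of any kind and GGTNA again, letters chosen with the known Abca1 element in mind, so that finding it in Abca1 is no result. These letters were present in 0.718% of the 32851 promoters in the table and, among the 45 promoters of the 38 ABC genes that matched, only in that of Abca1. CCAAT was present in 16 of the 45 (35.6%) against 37.4% of all promoters. GGGCGG, the GC box bound by Sp1, was present in 21 of 45 (46.7%) against 35.7%. The core of the antioxidant element, TGACNNNGC, was found in 7 of 45 (15.6%) against 12.4% of all promoters. The interferon element core (GAAA, 2 bases of any kind and GAAA again) was found in none of the 45 and in 3.44% of all promoters. ABC promoters held a median of 16 CpG pairs against 7 over all promoters, with a median GC content of 57% against 52.7%. The 2 promoters printed differ in this respect, with 26 CpG pairs in that of Abca1 and 12 in that of Abcb1b. Abcg1 and Abcc3 had no entry.

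Mean levels of ABC genes reached from 0.00028 to 24.01 FPKM. The mean FPKM over the 5 groups was at least 10 for 4 members, between 1 and 10 for 19, between 0.1 and 1 for 9 and under 0.1 for 18. The 23 members with a mean of at least 1 make up 46% of the family, against 47.3% of all genes. In all, 25 members reached 1 FPKM in at least 1 group, and only these could be called past the fold against vehicle. No member was listed at 0 in all groups, while Abca15, Abcb5 and Abca16 were listed at 0 in at least 1.

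**Figure D1:**
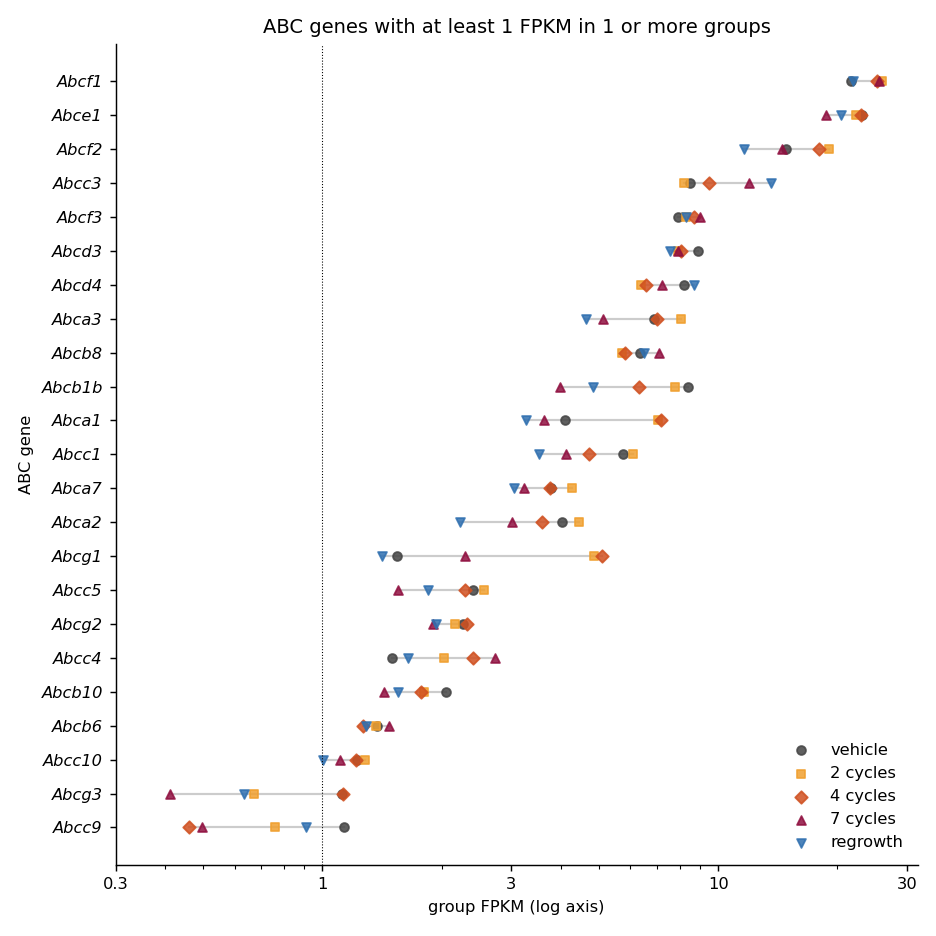
Group FPKM (log axis) of 23 ABC genes that reached 1 FPKM in at least 1 group, ordered by their mean. Each marker is 1 group value of the authors and the grey line spans the 5 groups. The spans are short for most genes, and the longest among genes with a mean of at least 1 FPKM is that of Abcg1, from 1.42 to 5.10.

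The ABCE and ABCF members, which lack membrane domains, held the first 3 places by mean FPKM and the fifth. Abcf1, which promotes translation initiation, ranked first with 21.6 FPKM in vehicle, 25.9 after 2 cycles, 25.2 after 4 cycles, 25.5 after 7 cycles and 21.9 in regrowth. Abce1, which splits ribosomes for recycling after termination, followed with 23.1, 22.3, 22.9, 18.7 and 20.4 FPKM. Abcf2 stood at 14.9, 18.999, 18.0, 14.5 and 11.6 FPKM, and Abcf3 at 7.92, 8.29, 8.70, 9.004 and 8.31 FPKM. None of these 4 genes differed from vehicle by 2-fold in any group. Their summed FPKM was 67.4 of 157 for the whole family in vehicle, 75.6 of 170 after 2 cycles, 74.8 of 166 after 4 cycles, 67.7 of 146 after 7 cycles and 62.2 of 139 in regrowth. The 9 other genes of ribosome recycling and initiation that were looked at, the partners of Abce1 and Abcf1, had none past the fold in any comparison with vehicle.

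Among the 46 remaining members the highest mean level was that of Abcc3, which carries glucuronide and bile acid conjugates out of cells. It was followed by Abcd3, an importer of fatty acids into peroxisomes, at 8.90, 7.93, 8.03, 7.94 and 7.53 FPKM, and by Abcd4, which serves lysosomal cobalamin release, at 8.18, 6.397, 6.57, 7.23 and 8.71 FPKM in the same order of groups. Both kept within 1.5-fold of vehicle throughout. Abcb8, a dimeric transporter of mitochondria, was at 6.34, 5.72, 5.81, 7.07 and 6.49 FPKM, and also differed little between groups. Abca3, the phospholipid transporter known from surfactant storage in the lung, was at 6.90, 8.05, 6.99, 5.10 and 4.64 FPKM, lowest in regrowth with a log2 difference from vehicle of -0.56.

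Few ABC genes were past the fold at any stage, which was also so of genes in general. Of the 25 members tested, 1 was higher (4%) and 0 were lower after 2 cycles, where the background was 3.23% of genes higher and 0.811% lower. After 4 cycles 1 was higher (4%) and 1 lower (4%), beside 3.65% higher and 1.6% lower among all genes. After 7 cycles 0 were higher and 3 lower (12% of those tested), against a background of 4.77% higher and 3.09% lower. In regrowth 0 were higher and 0 lower, against 1.72% and 2.3%. Altogether 4 members were past the fold against vehicle at least once, namely Abcg1, Abcc9, Abcb1b and Abcg3. As no test was run, these are counts of group values and not of significant genes.

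Of the 23 members with a mean of at least 1 FPKM, 12 had a highest group value under 1.5 times the lowest, 7 were between 1.5 and 2 times, and 4 (Abcb1b, Abca1 and Abcg1 among them) were at 2 times or more. The median of this ratio was 1.43, against 1.40 over all genes with such a mean, of which 13.4% reached 2 times. The lowest group value fell in regrowth for 11 of the 23 and after 7 cycles for 5, while the highest fell after 2 cycles for 9. The same places were not counted over all genes, so whether ABC genes differ from others in this is not known.

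The median of these 23 members was close to vehicle early in treatment and below it later. After 2 cycles their median log2 difference from vehicle was 0.06, beside 0.04 over the 11438 genes with a mean of at least 1 FPKM, with 13 members higher and 10 lower. With the groups scaled to the same sum this turned to 11 higher and 12 lower. After 4 cycles the median was 0.00 beside 0.06, with 11 higher and 12 lower (41.3% of all such genes were lower), or 7 higher and 16 lower with equal sums. After 7 cycles it was -0.17 beside 0.00, with 15 of 23 lower against 49.8% of all such genes. In regrowth it was -0.24 beside -0.01, with 17 of 23 lower against 51.2%. With equal sums 20 of 23 were lower after 7 cycles and 22 of 23 in regrowth. That scaling also took the median over all such genes to -0.04, -0.09, -0.26 and -0.23 after 2, 4 and 7 cycles and in regrowth. The counts with equal sums are therefore not to be read against the unscaled shares. Set against all genes with such a mean, the median of the 23 was 0.17 lower after 7 cycles and 0.23 lower in regrowth, or 0.15 and 0.16 lower with a pseudocount of 1 FPKM. Over all 50 members, most of them weakly expressed, the medians were -0.04 after 7 cycles and -0.14 in regrowth.

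**Figure D2:**
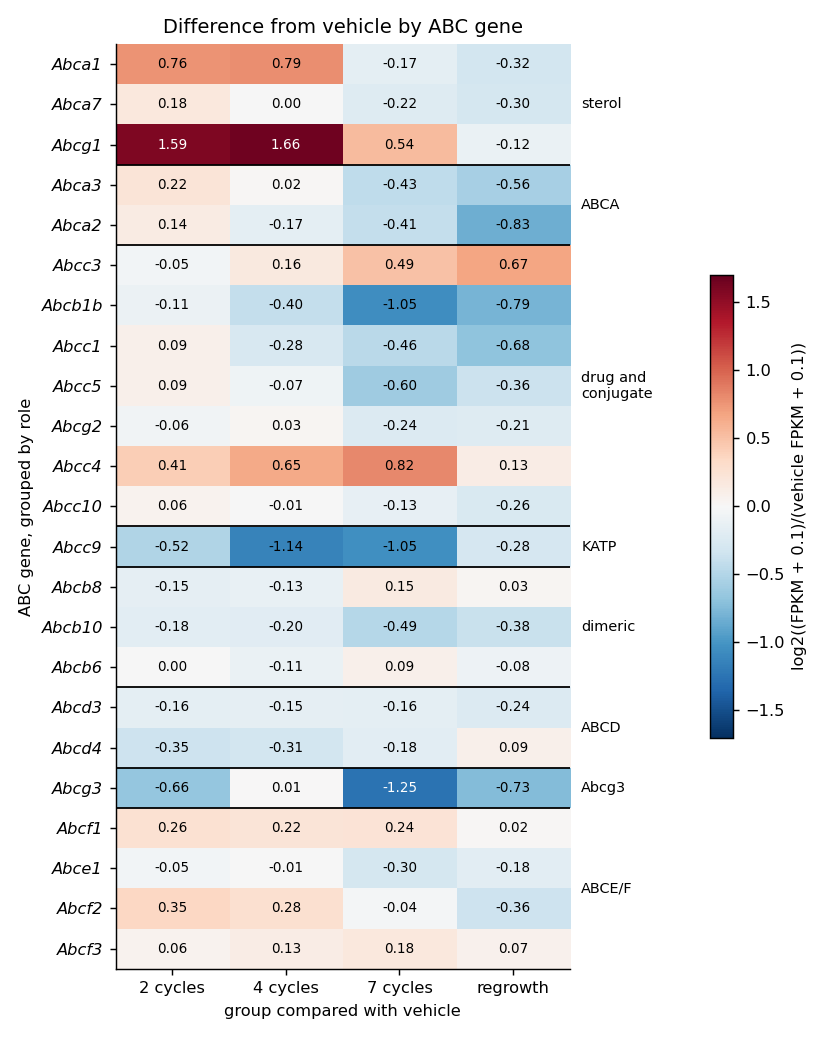
Log2 difference of each group from vehicle for 23 ABC genes that reached 1 FPKM in at least 1 group, ordered by role. Red is higher than vehicle and blue lower, with the value in each cell, and KATP marks the regulator of ATP-sensitive potassium channels. The strongest red is Abcg1 after 2 and 4 cycles, and blue prevails after 7 cycles and in regrowth.

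The sterol exporters held the largest increase. Abcg1, which passes cholesterol from cells to lipoprotein particles (table position mm9 chr17:31194638-31254926), was at 1.55 FPKM in vehicle, 4.84 after 2 cycles, 5.10 after 4 cycles, 2.29 after 7 cycles and 1.42 in regrowth. The values after 2 and 4 cycles thus stood above those of the other groups, and that of regrowth was close to vehicle. Relative to vehicle Abcg1 was 3.00-fold higher after 2 cycles and 3.16-fold higher after 4 cycles (log2 1.59 and 1.66). In these comparisons 1.46% and 1.48% of all genes tested were at least as far above vehicle.

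Abca1 loads cholesterol and phospholipid onto apolipoprotein A-I (mm9 chr4:53043660-53172767). Like Abcg1 it was highest after 4 and 2 cycles and lowest in regrowth, at a smaller scale. After 7 cycles, however, Abca1 was below vehicle, where Abcg1 was above it. It was at 4.09 FPKM in vehicle, 7.03 after 2 cycles, 7.16 after 4 cycles, 3.64 after 7 cycles and 3.27 in regrowth. Its log2 differences were 0.76 and 0.79 after 2 and 4 cycles, at 1.699-fold and 1.73-fold. Among members with at least 1 FPKM in the higher group, these were the closest to the fold limit without passing it. Of all genes tested, 4.94% and 5.29% were at least as far above vehicle. The promoter of this gene, printed above, holds the LXR repeat.

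The other genes of the sterol group were either within 1.5-fold of vehicle or expressed too weakly to be counted. Abca7, a phospholipid exporter related to Abca1, was at 3.77, 4.28, 3.76, 3.23 and 3.05 FPKM in vehicle, 2 cycles, 4 cycles, 7 cycles and regrowth, within 1.5-fold of vehicle in each group. The remaining 4 (Abcg4, Abcb4, Abcg5 and Abcg8) had a mean of 0.20 FPKM or less. Abcg5 and Abcg8, which act as 1 heterodimer in liver and gut and whose genes overlap in the table, had means of 0.0663 and 0.0510 FPKM. Abcg5 was also highest after 2 and 4 cycles and lowest in regrowth, but far below 1 FPKM throughout. It was at 0.0275 FPKM in vehicle, 0.134 after 2 cycles, 0.105 after 4 cycles, 0.0491 after 7 cycles and 0.0159 in regrowth. The summed FPKM of the 7 sterol and phospholipid exporters was 9.81 in vehicle, 16.7 after 2 cycles, 16.5 after 4 cycles, 9.56 after 7 cycles and 8.01 in regrowth.

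The partners of these exporters were read from a list of 17 genes of sterol efflux and the LXR pathway. Pltp, the phospholipid transfer protein and an LXR target, was at 7.59 FPKM in vehicle, 23.7 after 2 cycles, 23.8 after 4 cycles, 21.5 after 7 cycles and 7.75 in regrowth. Nr1h3, which encodes LXR alpha, was at 1.08, 2.95, 2.19, 1.32 and 1.01 FPKM, while Nr1h2, which encodes LXR beta, stayed between 21.5 and 26.2 FPKM. Apoe, the lipoprotein that accepts cholesterol from Abcg1 and Abca1, was at 720, 966, 1512, 894 and 666 FPKM. After 2 cycles 3 of the 17 tested (Pltp, Apoc1 and Nr1h3) were past the fold and 0 were lower, and 14 of 17 were above vehicle by any amount, or 13 after scaling to equal sums. After 4 cycles 4 of 16 (Pltp, Apoc1, Apoe and Apoa1) were past the fold, after 7 cycles 1 (Pltp) and in regrowth 2 (Apoc1 and Apoa1). The background was 3.23% of genes higher after 2 cycles, 3.65% after 4, 4.77% after 7 and 1.72% in regrowth. Above vehicle by any amount were 16 of 17 after 4 cycles, 11 after 7 cycles and 8 in regrowth. Scaling to equal sums gave 10, 6 and 4, with 3, 1 and 2 past the fold higher. Apoa1 is also on the liver list, which was highest after 4 cycles. Scarb1, the receptor for high density lipoprotein, and Npc1, which releases cholesterol from lysosomes, were not past the fold above vehicle in any group, with 8.44 and 3.51 FPKM after 4 cycles against 10.6 and 3.16 in vehicle.

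Macrophages express Abca1, Abcg1 and Nr1h3 strongly, and their markers moved with these genes. Of 11 macrophage markers, 10 were above vehicle after 2 cycles and 9 after 4 cycles (8 and 8 after scaling to equal sums), though none was past the fold above vehicle. Cd68 was at 18.1, 31.0, 31.4, 16.9 and 12.4 FPKM and Mertk at 1.42, 2.31, 2.30, 1.13 and 0.763 FPKM in vehicle, 2 cycles, 4 cycles, 7 cycles and regrowth. Csf1r, in contrast, was at 27.9, 28.3, 28.0, 14.6 and 15.1 FPKM. The sum over the list was 374, 468, 579, 395 and 338 FPKM, and no marker was at 0. Adipocyte markers were also higher in the CPA groups, with 8 of 9 tested past the fold after 2 cycles and 6 of 9 after 4 cycles. After 7 cycles, when Abca1 was below vehicle, 7 of 9 were past the fold higher (4 with equal sums). The background in these groups was 3.23%, 3.65% and 4.77% of genes higher. The part of either cell type in the values of Abca1 and Abcg1 was not tested. Neutrophil markers were highest after 7 cycles, when Abcg1 was at 2.29 FPKM and Abca1 below vehicle.

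**Figure D3:**
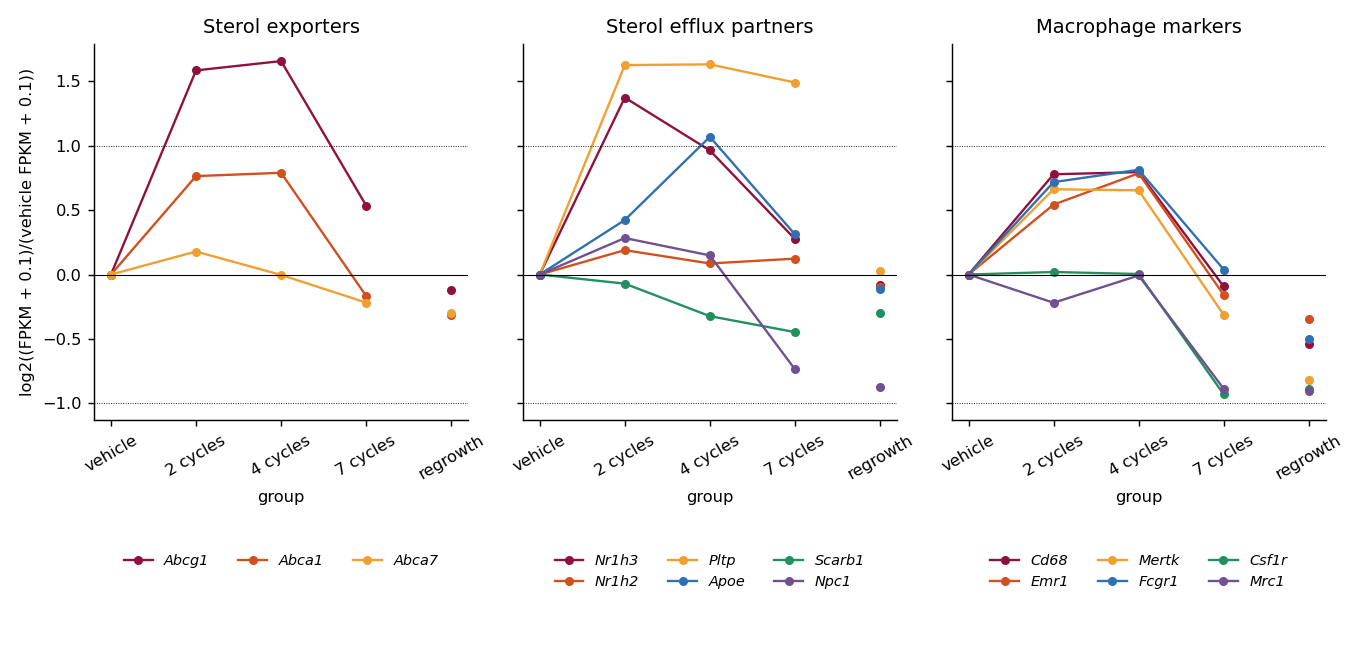
Log2 difference from vehicle of 3 sterol exporters (left), 6 partners of sterol efflux (middle) and 6 macrophage markers (right) by group. Lines join vehicle to 2, 4 and 7 cycles, and the single points are regrowth, which followed 4 cycles and not 7. Dotted lines mark 2-fold. Abcg1, Nr1h3 and Pltp passed 2-fold after 2 cycles, whereas each macrophage marker shown stayed below it.

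When treatment was halted, Abcg1 and Abca1 differed most among the ABC genes with at least 1 FPKM in the higher group. Between regrowth and 4 cycles, 0 of 24 members were higher and 2 lower, Abcg1 by 3.43-fold and Abca1 by 2.16-fold (log2 -1.78 and -1.11), beside a background of 0.985% higher and 4.31% lower. Of all genes tested, 1.04% were at least as far below the 4 cycle value as Abcg1. Of the sterol efflux partners, 4 were past the fold in the same direction, namely Pltp, Nr1h3, Apoe and Npc1. Of the 11 macrophage markers 5 were past the fold lower (Itgam, Cd68, Emr1, Mertk and Fcgr1) and all 11 were below the 4 cycle value. Of the 23 members with a mean of at least 1 FPKM, 19 were lower in regrowth than after 4 cycles against 56.6% of all such genes, with a median of -0.30 beside -0.06 over all such genes.

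With treatment continued, Abcg1 also stood lower. Between 7 and 2 cycles it was the single member of 23 past the fold, lower by 1.05 on the log2 scale, with 0 higher, beside 2.58% of genes higher and 3.29% lower. Abca1 and Abcb1b followed with log2 differences of -0.93 and -0.95, inside the limit. Between regrowth and 7 cycles, groups of the same age, 0 of 23 members were past the fold in either direction, beside 0.888% and 3.2% of all genes. The largest differences there were those of Abcc4 and Abcg1, at -0.69 and -0.65.

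The drug and conjugate exporters split into members that were lower late in treatment and members that were higher. P-glycoprotein is encoded in mice by Abcb1a and Abcb1b. Abcb1b (mm9 chr5:8798146-8866314), the more abundant copy, was at 8.37 FPKM in vehicle, 7.77 after 2 cycles, 6.32 after 4 cycles, 3.98 after 7 cycles and 4.81 in regrowth. The vehicle value was the highest, and each CPA group up to 7 cycles was lower than the one before it. After 7 cycles Abcb1b was 2.08-fold below vehicle (log2 -1.05), and 2.71% of all genes tested were at least as far below. With a pseudocount of 1 FPKM the log2 difference was -0.91, inside the limit. In regrowth it was -0.79 with the pseudocount of 0.1, which passed 2-fold (-1.01) after scaling to equal sums.

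Abcb1a (mm9 chr5:8660091-8748570), the copy known from the blood-brain barrier, was at 0.904, 0.903, 0.851, 0.461 and 0.645 FPKM in the same order of groups. It was lowest after 7 cycles, as was Abcb1b, with a log2 difference from vehicle of -0.84, but never reached 1 FPKM and was not counted. The genes lie side by side, 49.6 kb apart, and their transcripts share sequence. Of all stretches of 50 bases in the annotated transcripts of Abcb1a, 16.98% also occur in another ABC gene, chiefly Abcb1b, and for Abcb1b the share was 18.1%, chiefly with Abcb1a. The split of reads between the copies is therefore uncertain. Abcb4, the phosphatidylcholine exporter next to Abcb1b, shared 3.31% and had a mean of 0.0988 FPKM.

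Abcc1, the multidrug resistance protein that exports glutathione conjugates, was at 5.74, 6.10, 4.72, 4.14 and 3.53 FPKM, lowest in regrowth with a log2 difference of -0.68. Abcc5, an exporter of cyclic nucleotides and nucleotide analogs, was at 2.40, 2.56, 2.29, 1.55 and 1.84 FPKM, lowest after 7 cycles at -0.60. Abcg2, the breast cancer resistance protein first found in drug-selected breast cancer cells, moved little, at 2.26, 2.16, 2.32, 1.90 and 1.94 FPKM. Its largest log2 difference from vehicle was -0.24.

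Abcc4 and Abcc3 went the other way. Abcc4, which exports cyclic nucleotides, prostaglandins and nucleotide analogs, was at 1.499 FPKM in vehicle, 2.03 after 2 cycles, 2.41 after 4 cycles, 2.73 after 7 cycles and 1.65 in regrowth. Its value was above vehicle in every CPA group and close to it in regrowth. The log2 differences were 0.41, 0.65, 0.82 and 0.13, the last of which changed sign (-0.09) after scaling to equal sums. After 7 cycles 6.63% of all genes tested were at least as far above vehicle, so a change of this size was not rare.

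Abcc3 (mm9 chr11:94204608-94254290) was at 8.49, 8.21, 9.50, 12.0 and 13.6 FPKM, highest in the groups from the oldest mice. It was 1.41-fold above vehicle after 7 cycles and 1.59-fold in regrowth (log2 0.49 and 0.67), and 5.16% of all genes tested were at least as far above vehicle in regrowth. Epithelial markers moved with it. All 10 were above vehicle after 7 cycles and in regrowth, 4 of them past the fold in each (1 in each after scaling to equal sums, where Abcc3 was at log2 0.22 and 0.44), and their summed FPKM was 869, 776, 945, 1254 and 1236 in vehicle, 2 cycles, 4 cycles, 7 cycles and regrowth. None of these markers was at 0, and their part in the value of Abcc3 was not tested. Abcb1b, Abcc1 and Abcc5 were below vehicle where the epithelial markers were above it. After 7 cycles most markers of several other lists were below vehicle, along with these 3 pumps. These were 11 of 12 endothelial, 7 of 10 fibroblast and 6 of 8 pericyte markers. So were 7 of 11 macrophage markers, though their sum was 395 FPKM against 374 in vehicle. Of 9 T cell markers 5 were below vehicle. Their sum was 44.5 FPKM in vehicle, 47.9 after 2 cycles, 31.2 after 4 cycles, 22.0 after 7 cycles and 37.6 in regrowth. The single T cell markers did not all follow this sum, as 8 of 9 were above vehicle after 2 cycles, 5 after 4 cycles and 8 in regrowth. Cd8a and Cd8b1 were past the fold higher after 2 and 4 cycles (1 of them after 4 cycles with equal sums). The background there was 3.23% and 3.65% of genes higher. The part of these lists in the values of the pumps was not tested.

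Over the whole set of 12 drug and conjugate exporters, 7 had a mean of at least 1 FPKM. None was past the fold above vehicle in any group, and 1, Abcb1b after 7 cycles, was past the fold below it. The levels of the set ranged from 0.00037 FPKM for Abcb5 to 10.3 FPKM for Abcc3. Abcc2, the conjugate exporter of the liver canaliculus, had a mean of 0.0035 FPKM. The sum over the set was 30.9, 31.0, 29.7, 27.8 and 29.0 FPKM in vehicle, 2 cycles, 4 cycles, 7 cycles and regrowth, so that the higher values of Abcc3 stood beside lower values of Abcb1b and Abcc1. Outside the family, 20 solute carriers that carry drugs and nucleosides were looked at. Of the 8 tested in each comparison with vehicle, 0 were past the fold in either direction, though 1 was lower after 7 cycles and 1 in regrowth with the groups scaled to equal sums. Of 9 transcriptional regulators of drug transporters, 7 were tested and 0 were past the fold.

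**Figure D4:**
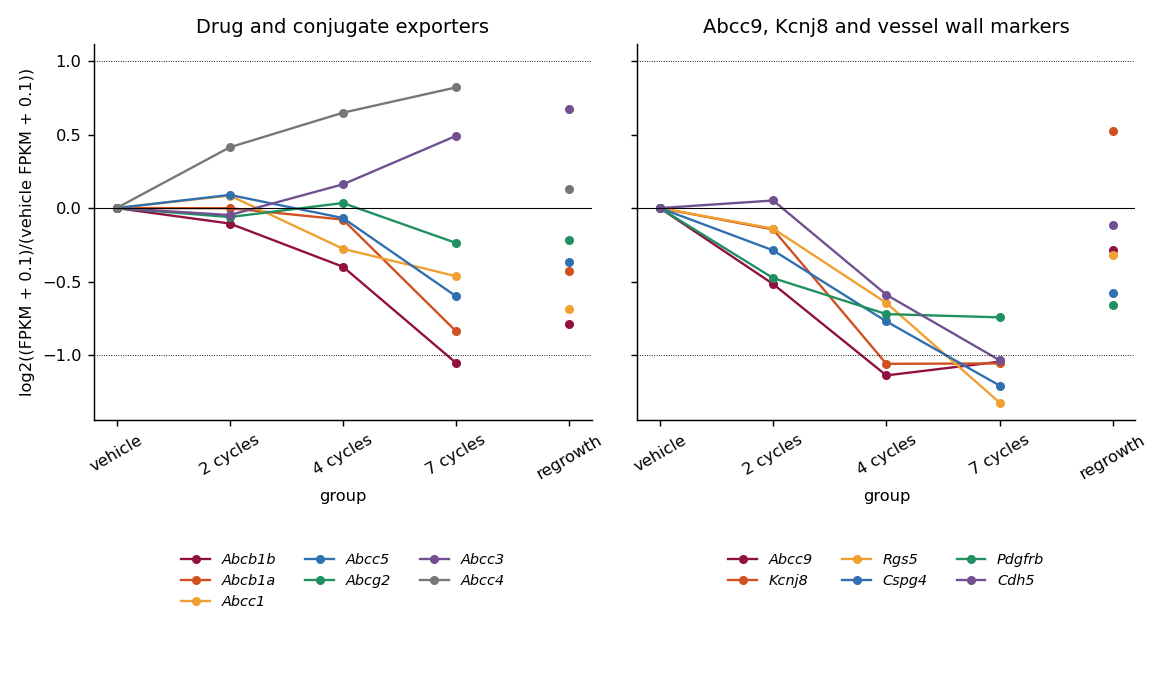
Log2 difference from vehicle of 7 drug and conjugate exporters (left) and of Abcc9, its channel partner Kcnj8 and 4 markers of pericytes and endothelium (right) by group. Lines join vehicle to 2, 4 and 7 cycles, single points are regrowth, and dotted lines mark 2-fold. Abcb1b lies lowest on the left after 7 cycles, and on the right Abcc9, Kcnj8, Rgs5, Cspg4 and Cdh5 all lie more than 2-fold below vehicle after 7 cycles.

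Abcc9 encodes the SUR2 subunit of ATP-sensitive potassium channels and does not transport. It is known as a gene of pericytes and muscle. It was at 1.13 FPKM in vehicle, 0.760 after 2 cycles, 0.459 after 4 cycles, 0.496 after 7 cycles and 0.911 in regrowth. The values after 4 and 7 cycles were the lowest, and regrowth lay between these and vehicle. Abcc9 was 2.20-fold below vehicle after 4 cycles and 2.06-fold after 7 cycles (log2 -1.14 and -1.05), with 1.21% and 2.79% of all genes tested at least as far below. Only its vehicle value reached 1 FPKM, and with a pseudocount of 1 in place of 0.1 the log2 differences were -0.55 and -0.51.

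Kcnj8, which encodes the channel pore that pairs with SUR2 and lies 16.5 kb from Abcc9 on chromosome 6, was at 1.75, 1.58, 0.789, 0.791 and 2.57 FPKM in the same order of groups. It was past the fold lower after 4 and 7 cycles, as Abcc9 was. In regrowth it was above vehicle, and past the fold above 4 cycles, where Abcc9 was higher by 0.85 on the log2 scale. Rgs5, a pericyte marker, was at 4.29, 3.88, 2.71, 1.65 and 3.42 FPKM, and Cspg4, which encodes the pericyte proteoglycan NG2, at 0.871, 0.695, 0.469, 0.320 and 0.552 FPKM.

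The wider markers of the vessel wall were partly lower in the same groups. Of 8 pericyte markers, 7 were below vehicle after 4 cycles and 6 after 7 cycles, with Des and Kcnj8 and then Rgs5 and Kcnj8 past the fold. Their summed FPKM was 46.9, 37.3, 29.0, 44.1 and 39.8, in which Des, also a muscle gene, went from 0.932 after 4 cycles to 18.7 after 7 cycles. Of 12 endothelial markers, 11 were below vehicle after 4 cycles and 11 after 7 cycles, with Flt1 and Cdh5 past the fold after 7 cycles, and their sum was 84.4, 99.6, 73.8, 66.6 and 93.2 FPKM. No marker of either list was at 0. The part of pericytes and endothelium in the value of Abcc9 was not tested. Skeletal muscle markers, in contrast, were highest after 7 cycles, all 10 past the fold above vehicle, when Abcc9 was at 0.496 FPKM. The other member of this kind, Abcc8, the SUR1 subunit of the pancreatic beta cell, had a mean of 0.0219 FPKM.

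Abcg3, a rodent relative of Abcg2, was at 1.12 FPKM in vehicle, 0.671 after 2 cycles, 1.13 after 4 cycles, 0.411 after 7 cycles and 0.634 in regrowth. The levels of vehicle and 4 cycles were alike, and the other groups were lower. Its log2 difference of -1.25 after 7 cycles was the largest decrease of any member past the fold against vehicle, but with a pseudocount of 1 it was -0.59. Its levels in successive groups went down, up and down again.

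No ABCD importer and no dimeric transporter of mitochondria or lysosomes was past the fold against vehicle. Of 11 other genes of peroxisomal fatty acid oxidation, 8 were tested and 0 were past the fold against vehicle. Abcb10, a transporter of the mitochondrial inner membrane that serves heme synthesis, was at 2.05, 1.80, 1.77, 1.43 and 1.55 FPKM in vehicle, 2 cycles, 4 cycles, 7 cycles and regrowth. Of 16 genes of heme and iron-sulfur cluster synthesis, 0 were past the fold.

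Abca2, a sterol and lipid transporter of lysosomes, was lowest in regrowth. It was at 4.04, 4.45, 3.59, 3.01 and 2.23 FPKM, with a log2 difference of -0.83 in regrowth and 3.64% of all genes tested at least as far below vehicle. It passed 2-fold (-1.05) after scaling to equal sums.

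Of the 14 other ABCA lipid transporters, a group that includes Abca2 and Abca3, those 2 alone had a mean of at least 1 FPKM. The 12 others ranged from 0.00028 to 0.61 FPKM. The upper end was Abca9, from a run of 5 ABCA genes on chromosome 11 (Abca8b, Abca8a, Abca9, Abca6 and Abca5). Abca8a and Abca8b shared 1.81% and 1.42% of their 50-base stretches, and Abca3 and its neighbor Abca17 2.22% and 2.63%, so low values of these neighbors may hold reads of the other copy. In all, 9 of the 50 members shared any such stretch with another, and 22 lay within 200 kb of another member.

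Genes of the ABC superfamily whose names do not follow the rule were read for comparison. Tap1 and Tap2, which pair to carry peptides into the endoplasmic reticulum for MHC class I, exceeded Abcc3, the most abundant transporter named by the rule, in FPKM in every group. Tap1 was at 23.3, 50.1, 42.9, 39.5 and 27.5 FPKM and Tap2 at 29.4, 49.9, 51.8, 53.0 and 44.2 FPKM in vehicle, 2 cycles, 4 cycles, 7 cycles and regrowth. Tap1 was past the fold after 2 cycles. The chloride channel Cftr was listed at 0 in at least 1 group.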

How the data were processed

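Polyadenylated RNA of 4T1 tumors was sequenced by the authors with strand-specific libraries. The submitters' processing notes name TopHat2, featureCounts, edgeR and build mm9, without versions. The deposited table holds the authors' FPKM, 1 value per gene and group, with the vehicle column repeated in each comparison and read once. Its 12 columns of the authors' comparisons (ratios, fold changes and p-values) were not used. No value per library was used, so no depth, interval or SD is given and no test was run. A value of exactly 0 is called listed at 0, because Hmgcs1, which every cell uses, had it in all 5 groups. Of 24197 lines, 27 held a date as symbol and were left out.

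Groups were taken from the labels. With Python 3.11.15, pandas 2.3.3, numpy 2.4.6 and matplotlib 3.10.9, log2 differences were computed with a pseudocount of 0.1 FPKM for 7 comparisons, 4 with vehicle and 3 between CPA groups. The count of genes past 2-fold with at least 1 FPKM in the higher group was tested on simulated data. Alternatives were other pseudocounts, FPKM minimums and a fold limit of 1.5, and scaling the columns to the same sum. Named genes were those past the fold against vehicle, the 10 highest by mean, 7 exporters chosen for drug or sterol transport, and the 2 nearest the limit on each side in each comparison with vehicle. A gene named outside this rule (such as Abca7, Abcb9, Abcb10 or Abcg5) was chosen after its values were seen, to describe its role group. The members and the gene lists were chosen with earlier results of these data known. Table symbols are in capitals and were written in mouse style, and all 50 matched the reference symbol table. The list symbols Trac, Cetp and Eif3j had no row and were not used here, and Adgre1 was found under its older symbol Emr1. Shared sequence was counted as 50-base stretches in GENCODE M21 transcripts, and promoters are from RefSeq on GRCm38.p6. Some members are counted but not reported here by name. Positions of genes are those of the table, on mm9.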

Additional observations from a re-analysis of the deposited data

How the results depend on the processing

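No paired analysis was possible because the table gives 1 value per group and its columns carry no replicate numbers, and no library could be left out for the same reason. Counts of ABC genes past the fold were higher at a limit of 1.5-fold, where they were 3 after 2 cycles (from 1), 4 after 4 cycles (from 2), 5 after 7 cycles (from 3), 6 in regrowth (from 0), 6 for 7 against 2 cycles (from 1), 6 for regrowth against 4 cycles (from 2) and 2 for regrowth against 7 cycles (from 0). A pseudocount of 1 FPKM left 1 after 4 cycles, 0 after 7 cycles, 0 for 7 against 2 cycles and 1 for regrowth against 4 cycles, since it shrinks differences, also those of Abcb1b after 7 cycles, Abca1 in regrowth against 4 cycles and Abcg1 in 7 against 2 cycles. Scaling to equal sums gave 3 in regrowth (Abca2 and Abcb1b among them) and 3 for 7 against 2 cycles (Abca1, Abcb1b and Abcg1). The share of all calls that were higher went with that scaling from 69.5% to 55.1% after 4 cycles, from 60.6% to 33.9% after 7 cycles, from 42.8% to 18.7% in regrowth and from 43.9% to 25.9% for 7 against 2 cycles. Of 441 differences of named genes under these pseudocounts and the scaling, 6 moved inside the 2-fold limit with the pseudocount of 1 FPKM, and 6 moved past it with the scaling and 1 with a pseudocount of 0.01 FPKM. None that was past the fold changed direction. Abcg1 stayed past the fold after 2 and 4 cycles under each alternative. A low FPKM rests on few reads, and how few is not known from group values.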

Other observations

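Peptide loading genes, the partners of Tap1 and Tap2, were above vehicle in most groups. Of 11 such genes (B2m, the chaperones and trimming peptidase of the endoplasmic reticulum, and immunoproteasome subunits and activators), all 11 were above vehicle after 2 and 4 cycles, 10 after 7 cycles and 10 in regrowth, and after scaling to equal sums these counts were 10, 11, 9 and 6. Without that scaling 42.7%, 41.3%, 49.8% and 51.2% of all genes with a mean of at least 1 FPKM were below vehicle, in the same order of groups. Psmb9 was past the fold after 4 cycles, Psmb10, Psmb8 and Psmb9 after 7 cycles, and Psmb9 in regrowth. The background in these 3 groups was 3.65%, 4.77% and 1.72% of genes higher. With equal sums 0, 1 and 0 of the list were past the fold in these groups. The summed FPKM of the list was 1342 in vehicle, 1943 after 2 cycles, 2102 after 4 cycles, 2148 after 7 cycles and 1820 in regrowth.

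Among ABC genes under 1 FPKM, Abcb9, a lysosomal peptide transporter related to Tap1 and Tap2, was at 0.180, 0.395, 0.323, 0.223 and 0.150 FPKM in vehicle, 2 cycles, 4 cycles, 7 cycles and regrowth. Abcd2, a peroxisomal fatty acid importer, was at 0.366, 0.649, 0.592, 0.441 and 0.211 FPKM. Both were highest after 2 cycles and lowest in regrowth. Abca9 was at 0.864, 0.586, 0.814, 0.331 and 0.446 FPKM, high in vehicle and after 4 cycles and low after 7 cycles, as was Abcg3. These 3 genes were chosen after their values were seen, and at such levels the number of reads behind a value is unknown.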
